A study of Mus musculus with 6 samples.

Results

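Plvap, Flt1, Kdr, Pecam1, Cdh5, Tie1 and Eng, which mark the endothelial cells that line blood vessels, and Cspg4, Pdgfrb and Rgs5, which mark the pericytes wrapped around capillaries, were followed in cultured spheres of mouse mammary tumors. They were chosen by name, with earlier results of these data known. The array carried 12 probes for these 10 genes in 22 spots, out of 55681 probes for 20660 named genes. The tumors came from mice heterozygous for FRS2beta (3 arrays, hetero) or from FRS2beta knockout mice (3 arrays), and both groups therefore carried at least 1 altered allele of the gene that encodes this docking protein for receptor tyrosine kinases. The spheres of both groups were grown in DMEM/F12 with B27 and heparin at 2 mg/mL, and with EGF and bFGF at 20 ng/mL each. Mouse age, strain and the oncogene that drove the tumors are not given in the sources used here. The labels also do not say whether replicates came from separate mice or tumors, so a p-value here sets a difference against array-to-array spread that could be purely technical.

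A capillary is a tube of endothelial cells held together by junction proteins and supported by pericytes. VEGF ligands act on the endothelial receptors encoded by Flt1 and Kdr, angiopoietins on the TIE receptors, and platelet-derived growth factor B, released by endothelium, draws pericytes through the receptor encoded by Pdgfrb. Several of these genes are not confined to vessels: fibroblasts also make Pdgfrb and Cspg4, and leukocytes or platelets also make Pecam1, Eng and Flt1.

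The markers did not move as a group. Plvap, Flt1 and Cspg4 were 3.26-fold, 2.44-fold and 3.35-fold higher in knockout spheres, Pdgfrb was 1.09-fold higher, and Kdr and Pecam1 were 1.34-fold and 1.12-fold lower (limma, adjusted p under 0.05 for each). Cdh5, Tie1, Eng and Rgs5 did not pass. The count of 4 higher and 2 lower of 10 stood beside 60.4% of all 15838 genes tested that passed, 27.9% higher and 32.5% lower in knockout, so a call by itself was common. A rise of at least 2-fold was called for 3 of the 10 markers and for 6.59% of all genes. Because the markers were chosen with earlier results of these data known, that difference in share carries no weight. The median log2 change was 0.03 over the markers and -0.03 over all genes tested. Scaling the arrays instead on Agilent's added E1A control RNA (spike-in scaling) raised the median of all genes to 0.39. With it 8 markers were called higher and 0 lower (limma; 0 lower also at an unadjusted p under 0.05), and neither the fall of Kdr nor that of Pecam1 was seen. Of all calls, 46.1% were higher in knockout with percentile scaling and 90.1% with spike-in scaling (11490 higher and 1260 lower).

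**Figure D1:**
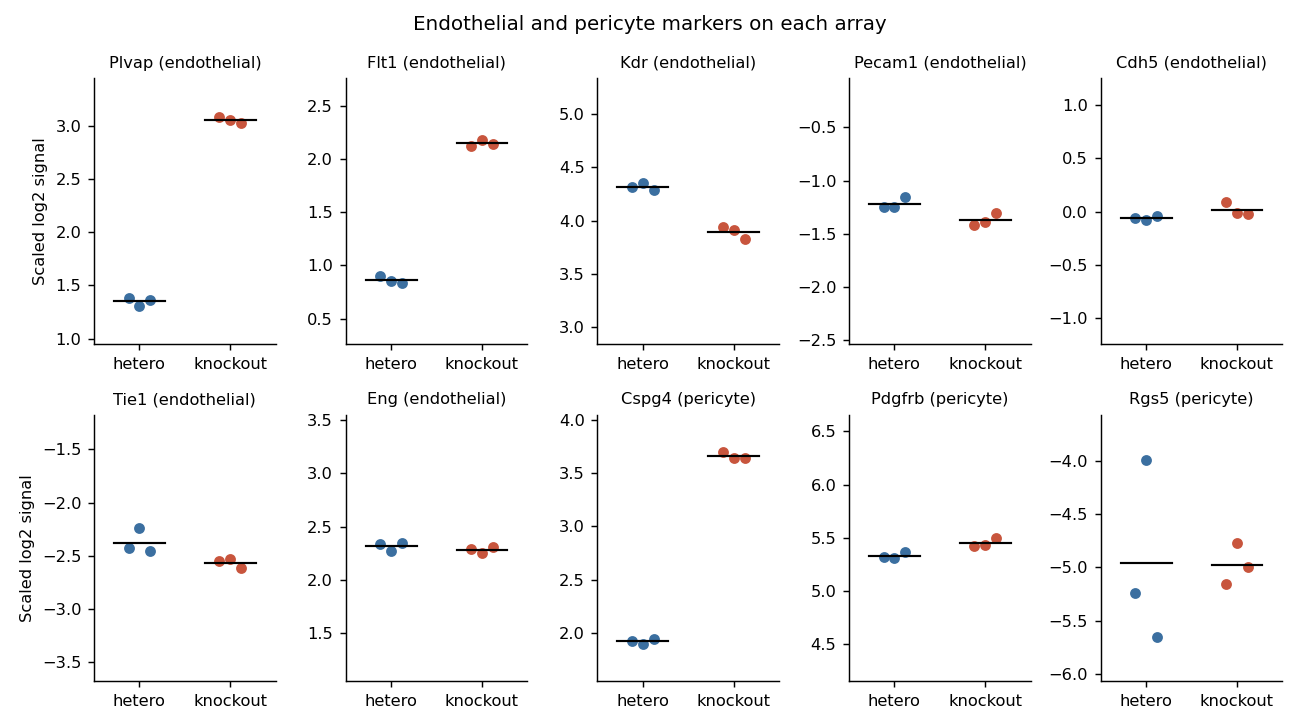
Scaled log2 signal of the 10 markers on each array, 3 hetero arrays in blue and 3 knockout arrays in red. Each panel spans 2.5 log2 units and the bars are group means. The knockout arrays stand apart above the hetero arrays for Plvap, Flt1 and Cspg4, while the other panels show shifts of 0.43 or less.

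Signals are given on the log2 scale relative to the 75th percentile of their array, so that 0 is the signal at that percentile, and a level of one gene cannot be set against that of another because probes differ in brightness. Well above background is the scanner software's own flag. It was set for 60.4% to 61.3% of probes on hetero arrays and for 60.5% to 69.6% on knockout arrays. On all 6 arrays 9 of the 10 markers, all but Rgs5, were well above background, beside 14564 of all 15838 genes tested. The 9 included the defining endothelial genes Cdh5, Pecam1, Kdr and Tie1, so these were detected in spheres of both genotypes. In RNA from whole spheres, fewer cells of a type and less RNA per cell cannot be told apart. The 75th percentile itself was 404 to 416 on hetero arrays and 465 to 487 on knockout arrays, and pairs of arrays within a genotype had correlations of 0.995 to 0.998 over genes, which are not independent replicates. The probe for Frs3, the gene of FRS2beta, was well above background on 1 of 3 hetero arrays and 0 of 3 knockout arrays, which does not check the labels. Each column of the slide held arrays of 1 genotype, so slide column and genotype cannot be told apart.

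Among the VEGF receptors, Flt1 and Kdr changed in opposite directions. Flt1 encodes VEGFR1, which binds VEGF-A tightly and signals weakly. Its scaled log2 signal was 0.90, 0.85 and 0.84 on hetero arrays 1 to 3 and 2.12, 2.18 and 2.14 on knockout arrays 1 to 3. The groups did not overlap, and the gap was many times the spread within either group. The log2 change was 1.28 ± 0.03 (SE, n = 3 per group; limma adjusted p = 2.18e-06), and 94.6% of genes tested had a change no larger. Kdr encodes VEGFR2, the receptor through which VEGF-A drives most endothelial growth. Its brighter probe read 4.31, 4.35 and 4.29 on hetero arrays and 3.94, 3.91 and 3.83 on knockout arrays, all 3 knockout arrays lying below all hetero arrays. The change was -0.43 ± 0.04 (limma adjusted p = 0.000347). With spike-in scaling it was -0.01 and no longer passed (adjusted p = 0.872).

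Kdr had a second, much dimmer probe for the same transcript, NM_010612, printed in 10 spots. Its mean of spots was -1.68, -1.68 and -1.63 on hetero arrays and -1.83, -1.87 and -1.82 on knockout arrays, again without overlap. The change was -0.18 ± 0.03 (limma adjusted p = 0.00756 over all probes, of which 47.0% of 35427 passed), smaller than the 0.43 of the brighter probe though of the same sign. On this probe the 10 spots of an array varied by an SD of 0.07 to 0.12, and the array means varied by 0.03 within each genotype. With spike-in scaling the dimmer probe turned to 0.24 (adjusted p = 0.0025), and with median scaling it was -0.16 and did not pass (adjusted p = 0.0934). Why the probes differ in brightness and in size of change was not tested.

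The upstream sequences of these receptors are shown because Flt1 rose and Kdr, except with spike-in scaling, fell. That of Cspg4, the pericyte marker that rose most, is shown with them. They are the 250 bases before the transcription start in RefSeq's mouse annotation on GRCm38.p6, written 5′ to 3′ along the gene. Flt1 lies at chr5:147726012-147726261 on the minus strand, Kdr at chr5:75978456-75978705 on the minus strand and Cspg4 at chr9:56864854-56865103 on the plus strand. Capitals mark matches, on either strand, to the GC box GGGCGG, the ETS core CCGGAA or the TATA box TATAAA.
Flt1: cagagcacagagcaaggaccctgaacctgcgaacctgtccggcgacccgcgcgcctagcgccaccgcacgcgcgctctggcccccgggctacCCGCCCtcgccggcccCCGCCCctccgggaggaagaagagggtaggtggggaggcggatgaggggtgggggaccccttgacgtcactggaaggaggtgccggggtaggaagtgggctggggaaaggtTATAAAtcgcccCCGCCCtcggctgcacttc
Kdr: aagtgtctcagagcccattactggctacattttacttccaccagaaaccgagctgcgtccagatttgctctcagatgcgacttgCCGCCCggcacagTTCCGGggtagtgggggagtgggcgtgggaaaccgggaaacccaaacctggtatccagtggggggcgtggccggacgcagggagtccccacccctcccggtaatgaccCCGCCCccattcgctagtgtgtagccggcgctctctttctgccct
Cspg4: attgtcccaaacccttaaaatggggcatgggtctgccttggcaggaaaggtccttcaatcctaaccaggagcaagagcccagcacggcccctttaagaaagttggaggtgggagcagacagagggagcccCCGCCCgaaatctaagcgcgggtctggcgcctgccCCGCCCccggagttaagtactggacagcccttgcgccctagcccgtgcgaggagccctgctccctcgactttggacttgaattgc

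The GC box, bound by SP1 and related factors, matched 3 times upstream of Flt1 and 2 times each upstream of Kdr and Cspg4, and 32.7% of 32851 mouse promoters of this length held it. Flt1 also held a TATA box 31 to 26 bases before its start (12.37% of promoters), and Kdr an ETS core 153 to 148 bases before its start (12.03%). The AP-1 site TGACTCA (4.46% of promoters), the E-box CACGTG (6.02%) and the GATA site AGATAA (9.99%) matched none of these 3. Promoters were found for 6 of the 10 markers. In those of Tie1 and Eng none of the 6 motifs matched, and Rgs5 held the GATA site alone. Whether any motif bears on a change was not tested. GC content was 70.4% upstream of Flt1, 61.6% of Kdr and 60.4% of Cspg4. It was 62.4% upstream of Eng, 60.4% of Tie1 and 53.6% of Rgs5, beside a median of 52.4% over all promoters. The values of Kdr and Cspg4 were thus like those of Eng and Tie1. A match describes letters and shows no binding.

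Plvap encodes the protein that forms the diaphragms of fenestrated capillaries and is among the endothelial genes with the narrowest expression. Its brighter probe read 1.38, 1.31 and 1.36 on hetero arrays and 3.09, 3.06 and 3.02 on knockout arrays. Every knockout array lay far above every hetero array. The change was 1.71 ± 0.03 (SE, n = 3 per group; limma adjusted p = 1.08e-06). A second Plvap probe, for the same transcript NM_032398, read -0.90, -1.14 and -1.03 on hetero arrays and 0.58, 0.48 and 0.45 on knockout arrays. It thus moved in the same direction and to a similar extent, by 1.52 ± 0.07 (limma adjusted p = 6.99e-05 over all probes). With normexp background correction, which lifts dim signals, the dimmer probe's change was 1.27 and the brighter probe's 1.68.

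Among the markers, the receptor gene Tie1 and the co-receptor gene Eng differed little. Tek, from the list of other endothelial genes, fell by 0.54 ± 0.06 with percentile scaling (limma adjusted p = 0.000783). Spike-in scaling, which adds about 0.42 to each change, makes this fall smaller. Tek was named as the partner of Tie1, beyond the rule by p-value. Tie1 encodes an orphan receptor that partners the angiopoietin receptor TEK. It read -2.43, -2.24 and -2.46 on hetero arrays and -2.55, -2.53 and -2.61 on knockout arrays, with hetero replicate 2 the highest. The groups did not overlap, and the change of -0.19 ± 0.07 just missed the threshold (limma adjusted p = 0.0540). It passed without hetero replicate 2 (-0.12, adjusted p = 0.0482) and without hetero replicate 3 (-0.23, adjusted p = 0.0476), and with the normexp correction (adjusted p = 0.00725). Eng encodes endoglin, a co-receptor for BMP9 and TGF-beta. It read 2.33, 2.27 and 2.35 on hetero arrays and 2.29, 2.25 and 2.31 on knockout arrays, and the groups overlapped. Its change was -0.03 ± 0.03, with a 95% interval of -0.11 to 0.05 (limma adjusted p = 0.393). With spike-in scaling both signs turned and both genes passed, Tie1 at 0.23 (adjusted p = 0.0174) and Eng at 0.38 (adjusted p = 0.000252).

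The junction proteins gave small differences of opposite sign. Cdh5 encodes VE-cadherin, the adhesion molecule of endothelial adherens junctions and the most restricted marker of the lineage. It read -0.06, -0.08 and -0.04 on hetero arrays and 0.09, -0.01 and -0.02 on knockout arrays. The knockout arrays lay above the hetero arrays, knockout replicates 2 and 3 only narrowly, and the change of 0.08 ± 0.04 did not pass (95% interval -0.01 to 0.17, limma adjusted p = 0.112). Pecam1, the platelet and endothelial adhesion molecule CD31, read -1.24, -1.25 and -1.16 on hetero arrays and -1.42, -1.39 and -1.31 on knockout arrays, its 2 spots averaged. Within an array those 2 spots varied by an SD of 0.03 to 0.40. The groups did not overlap, and the change was -0.16 ± 0.04 (limma adjusted p = 0.0251). That call was lost with median scaling (adjusted p = 0.133) and without hetero replicate 3, knockout replicate 1 or knockout replicate 2 (adjusted p = 0.0628, 0.0755 and 0.0775). With spike-in scaling Cdh5 rose by 0.50 and passed (adjusted p = 9.66e-05), and Pecam1 turned to 0.26 (adjusted p = 0.00324).

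Of the pericyte markers, Cspg4 rose as much as Plvap. It encodes the NG2 proteoglycan, which is found on pericytes and on other progenitor-like cells. Its signal was 1.92, 1.90 and 1.94 on hetero arrays and 3.70, 3.65 and 3.64 on knockout arrays, so the groups were far apart beside their SDs of 0.02 and 0.03. The change was 1.74 ± 0.03 (SE, n = 3 per group; limma adjusted p = 5.82e-07), and 96.2% of genes tested had a change no larger. Pdgfrb, the receptor for platelet-derived growth factor B, read 5.32, 5.31 and 5.36 on hetero arrays and 5.42, 5.43 and 5.50 on knockout arrays. The change was small, 0.12 ± 0.03 (limma adjusted p = 0.0205). It missed the threshold with median scaling (0.14, adjusted p = 0.115) and without hetero replicate 1, hetero replicate 2 or knockout replicate 3 (0.12, 0.11 and 0.10, adjusted p = 0.0608, 0.0613 and 0.0513). It was 0.25 with quantile and 0.54 with spike-in scaling, so its size was not settled while its sign was the same under each setting run.

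Rgs5, a regulator of G protein signalling and one of the most specific pericyte genes in many tissues, was near background. It read -5.24, -3.99 and -5.65 on hetero arrays, where only replicate 2 was well above background, and -5.16, -4.77 and -4.99 on knockout arrays, where all 3 were. The change was -0.01 ± 0.45, with a 95% interval of -1.14 to 1.11 (limma adjusted p = 0.981), so that a 2-fold difference either way was not detectable at this signal. Without hetero replicate 2 it was 0.47 (adjusted p = 0.0817).

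Across the markers, 8 of 10 had groups that did not overlap, beside 68.9% of all genes tested. Besides the 3 large rises and Kdr, the other 6 markers had changes below 0.2 log2 units in size with percentile scaling. For Rgs5, near background, the interval of -1.14 to 1.11 was too wide to show that the difference was small. Under spike-in scaling Tie1, Pecam1, Eng, Cdh5 and Pdgfrb were called higher, at 0.23, 0.26, 0.38, 0.50 and 0.54. Rgs5 was 0.40 under that scaling and was not called.

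**Figure D2:**
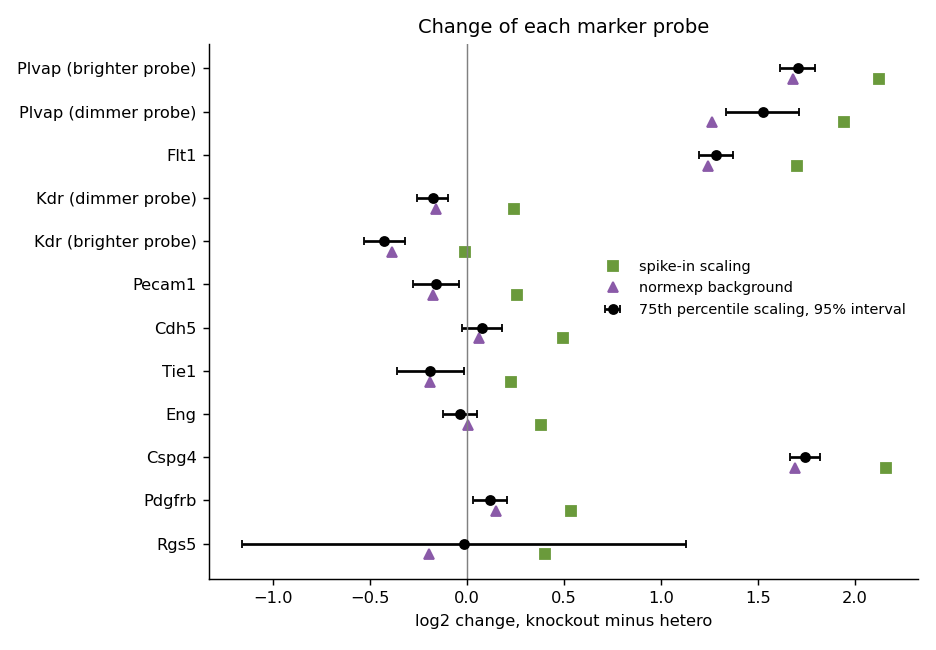
Change in log2 signal, knockout minus hetero, of the 12 probes of the markers. Black points are the main values with their 95% intervals, and coloured marks are the values with spike-in scaling or normexp background correction. Plvap, Flt1 and Cspg4 stay above 1 under all 3, while spike-in scaling carries Kdr's brighter probe from -0.43 to -0.01.

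**Figure D3:**
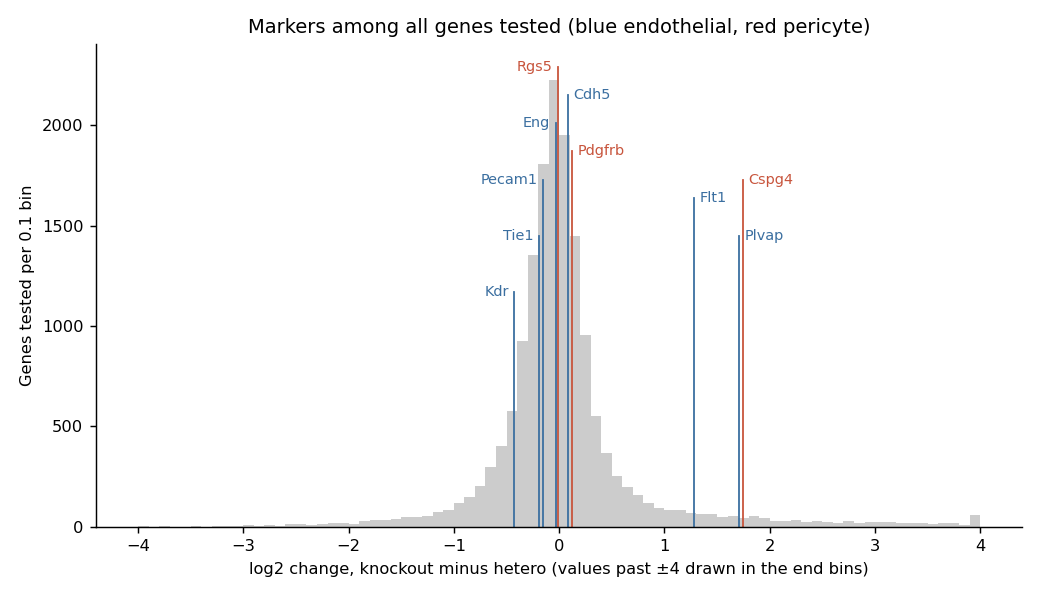
Distribution of log2 changes, knockout minus hetero, over the 15838 genes tested, in bins of 0.1, with the position of each marker (blue endothelial, red pericyte; line height has no meaning). Plvap, Flt1 and Cspg4 lie in the right tail and the other 7 within the central peak.

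Other endothelial genes, taken from a list of 30, went both ways in knockout spheres. Of 29 tested, 6 rose and 14 fell, beside 27.9% and 32.5% of all genes, with a median log2 change of -0.21 beside -0.03. With spike-in scaling 17 rose and 5 fell (median 0.20), beside 11490 and 1260 of all 15838 genes. Clec14a, a C-type lectin of tumor and normal endothelium, fell by 1.65 ± 0.03, from 1.78 ± 0.05 to 0.13 ± 0.02 (SD, n = 3 each). S1pr1, a sphingosine-1-phosphate receptor that stabilises junctions, fell by 1.45 ± 0.03, and Ackr1, the chemokine-binding receptor of venules, by 1.47 ± 0.05. Cd34 and thrombomodulin, Thbd, fell by 0.62 ± 0.03 and 0.63 ± 0.05, and by 0.21 each with spike-in scaling (limma adjusted p of these 5 genes up to 0.000227). Thus Clec14a, S1pr1 and Ackr1 fell while Plvap and Flt1 rose in the same spheres.

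Podxl, a sialomucin of endothelium and of some epithelia, rose from below background on all hetero arrays to well above it on all knockout arrays, at least 2.23-fold. This bound sets the knockout mean against the lowest signal counted as above background on each hetero array. Podxl passed the filter on dim probes only through the knockout arrays, where it was high, so its place among the 6 genes that rose carries no weight. With normexp the log2 change was 0.20, which is below the bound. The other 5 genes that rose were Esm1 (2.20 ± 0.26), Robo4 (0.41 ± 0.05), Emcn (0.27 ± 0.05), Vwf (0.26 ± 0.03) and Mmrn2 (0.14 ± 0.02), named after their values were seen. Mmrn2 did not pass with median scaling (adjusted p = 0.0972), and Esm1 was 1.19 with normexp. Esm1, endocan, is induced in endothelial tip cells by VEGF. Erg, an endothelial transcription factor, was not tested because its better probe was well above background on only 2 of 6 arrays, none of them hetero.

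Few of the listed lymphatic genes gave a signal well above background. Of 6 listed genes only podoplanin, Pdpn, could be tested, and it is also a fibroblast gene. Ccl21a had no probe on the array. Prox1, the transcription factor that defines lymphatic identity, Flt4, which encodes VEGFR3, and Reln were well above background on 0 of 6 arrays, and Lyve1 on 2. Pdpn fell by 0.44 ± 0.02 (limma adjusted p = 3.81e-05) and by 0.02, without passing, in the spike-in scaled data (adjusted p = 0.527).

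Other genes of mural cells, the pericytes and vascular smooth muscle cells, went both ways. Of 13 tested of 15 listed, 6 rose and 5 fell (median -0.12), again beside 27.9% and 32.5% of all genes. With spike-in scaling 8 rose and 2 fell, beside 11490 and 1260 of all 15838 genes. Notch3, the receptor that maintains mural cells, rose by 1.69 ± 0.03. The contractile genes Acta2, Des and Cnn1 rose by 1.69 ± 0.02, 0.73 ± 0.02 and 0.52 ± 0.03. The pericyte-enriched mitochondrial gene Ndufa4l2 fell by 1.11 ± 0.02, and vitronectin, Vtn, fell by 4.18 ± 0.02 (limma adjusted p of these 6 genes up to 5.13e-05). Acta2, Cnn1 and Notch3 are also genes of myoepithelial or luminal mammary cells. The channel gene Kcnj8, a selective pericyte gene, was well above background on 0 of 6 arrays, and the smooth muscle myosin Myh11 on 1.

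Of the ligands and partners of the marker receptors, 12 rose and 9 fell of 25 tested of 27 listed, beside 27.9% and 32.5% of all genes, with a median of 0.13 beside -0.03. Adrenomedullin, Adm, a vasoactive peptide, fell by 2.09 ± 0.03 and the lymphangiogenic ligand gene Vegfd by 1.23 ± 0.02. Of the 4 ligand genes of PDGF receptors, Pdgfc rose by 1.72 ± 0.03, Pdgfa by 1.02 ± 0.02 and Pdgfb, the main ligand of the Pdgfrb receptor, by 1.61 ± 0.04, while Pdgfd fell by 0.82 ± 0.14. The Notch ligand gene Jag1 rose by 1.17 ± 0.02 and Tgfb1 by 1.01 ± 0.02. Vegfa, the shared ligand of the Flt1 and Kdr receptors, rose by 0.28 ± 0.02, from 4.02 to 4.29. The TIE2 antagonist Angpt2 rose by 1.04 ± 0.06, and Acvrl1, the receptor with which endoglin acts, fell by 0.16 ± 0.03. Pdgfb, Pdgfd, Vegfa, Angpt2 and Acvrl1 were named as partners of the markers, beyond the rule by p-value. Limma adjusted p ran up to 0.00549 for these 11 genes. With spike-in scaling 18 genes of the list rose and 6 fell (median 0.55), beside 11490 and 1260 of all 15838 genes (median 0.39). Adm, Vegfd and Pdgfd were still lower then (-1.67, -0.81 and -0.40), while Acvrl1 turned to 0.26 and passed (adjusted p = 0.000655). With median scaling Acvrl1 did not pass (-0.14, adjusted p = 0.113). The BMP ligand genes Gdf2 and Bmp10 were not tested, with at most 2 of 6 arrays well above background.

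**Figure D4:**
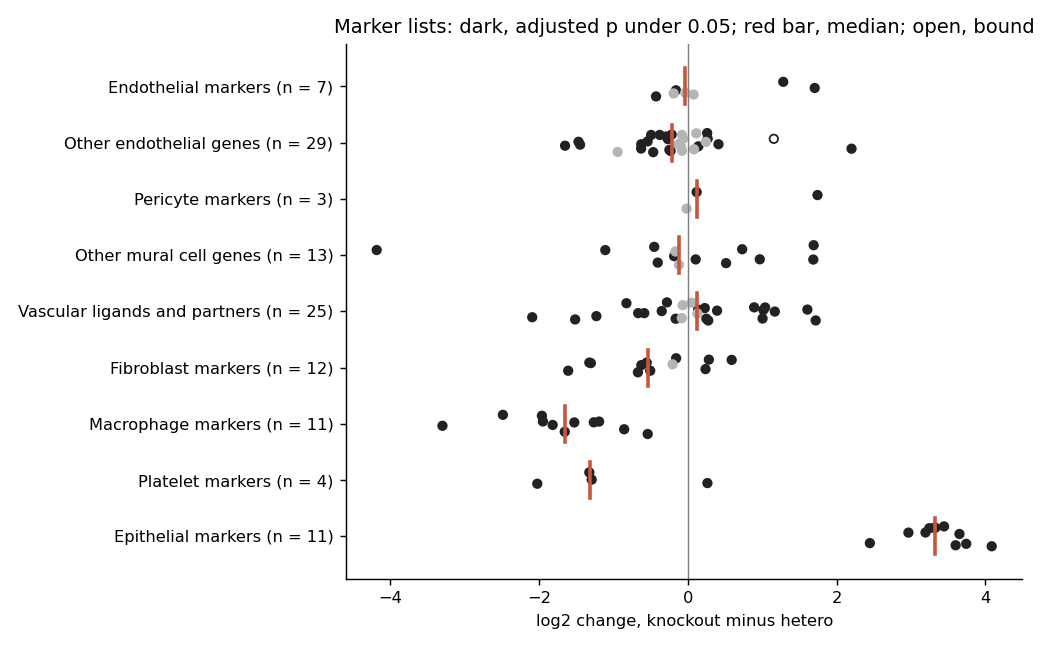
Log2 change, knockout minus hetero, of each tested gene in the marker lists and in lists for other cell types (dark, adjusted p under 0.05; grey, not; red bar, list median; open, the bound for Podxl). The endothelial and mural lists spread on both sides of 0, the macrophage markers all lie below 0 and the epithelial markers all above 2.

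Markers of the other cells that a tumor sphere could hold moved alongside these genes. Of all genes tested, 27.9% rose and 32.5% fell. All 11 epithelial markers rose (median 3.33), and their summed signal, in units of the array's 75th percentile, went from 21.3 to 21.5 in hetero to 188 to 191 in knockout. Krt8, Krt7 and Krt19, keratins of luminal epithelium, led them by p-value, at 3.25, 3.65 and 4.09. All 11 tested macrophage markers fell (median -1.65), with a summed signal of 20.1 to 20.5 in hetero and 7.68 to 7.75 in knockout. They were led by Lyz2, Ctss and Adgre1, at -1.95, -1.65 and -2.48. With spike-in scaling 9 of the 11 macrophage markers were called lower (median -1.23), beside 1260 of all 15838 genes. Their median was -0.95 with normexp. Of 4 tested platelet markers, 3 fell and 1 rose, and the sum went from 1.76 to 1.80 in hetero to 0.654 to 0.685 in knockout. Pf4, Ppbp and Itga2b fell by 2.02, 1.29 and 1.32. The rise, of Gp1bb (0.27 ± 0.07, limma adjusted p = 0.0242), was not called with quantile, median or normexp settings (adjusted p = 0.0502, 0.0595 and 0.0597). The median was -1.31, and -0.58 with normexp.

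Fibroblast markers gave 3 higher and 8 lower of 12, beside 27.9% and 32.5% of all genes, with a median of -0.53. Their summed signal was 2575 to 2791 in hetero and 2073 to 2141 in knockout. Dpt, Pdgfra and Pi16 fell by 1.61, 1.32 and 1.30. Their median was -0.28 with quantile and -0.11 with spike-in scaling. The summed signal of the 7 endothelial markers was 30.6 to 31.1 in hetero and 33.2 to 34.7 in knockout. That of the 3 pericyte markers was 43.4 to 45.0 and 55.8 to 57.8. Such sums follow the brightest probes, here Kdr at 19.9 and Pdgfrb at 40.3 in hetero. The median log2 changes were -0.03 for the endothelial and 0.12 for the pericyte markers. No tested marker of the macrophage, fibroblast or epithelial lists was below background on all arrays of a genotype. The part that any of these cells had in the changes of Plvap, Flt1, Cspg4, Pecam1 or Pdgfrb was not tested.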

How the data were processed

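RNA was labelled with Cy3 and hybridised to 6 Agilent arrays with 1 colour. The deposited scanner files hold linear spot intensity from Agilent Feature Extraction 10.7.3.1, per the file headers and the submitters' processing notes. Per the file headers, background was subtracted and a spatial trend fitted. The processed signal is not scaled between arrays. A deposited table of intensity values agreed within 1% with that signal divided by 1 constant per array, for all 46208 probes compared. Control spots (3671) and outlier flags (102 to 129 spots per array) were left out, and no spot was saturated. Spots of a probe were averaged as log2, and each array was set to its 75th percentile. Probes flagged well above background on at least 3 of 6 arrays were kept, and a gene was its brightest kept probe. Genes were named by RefSeq accession (GRCm38.p6 table; 27235 probes named).

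Genotypes were compared over all 15838 genes with lmFit and eBayes of limma 3.58.1 (R 4.3.3), with Benjamini-Hochberg adjustment and a threshold of 0.05. The same fit was run on 35427 single probes. Precision is limited by having 3 arrays per genotype, all from 1 slide and 1 scan day. Both slide rows held both genotypes, and no slide column did. Alternatives covered scaling, background, filter, probe choice, the value table, blocks, an intensity trend and leaving out each replicate. The files lack the mean spot signal, so normexp (offset 50) used the median spot signal. Spike-in scaling used 238 E1A spots well above background.

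The markers and lists were chosen with earlier results of these data known. Named by rule were the 10 markers, up to 6 genes of smallest p in each vascular list and up to 3 in each list of another cell type.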

Additional observations from a re-analysis of the deposited data

How the results depend on the processing

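Under 17 other settings, Plvap, Flt1 and Cspg4 kept their direction and call, at log2 changes of 1.62 to 2.13, 1.25 to 1.70 and 1.69 to 2.16. The genes called ranged from 7069 to 12750 and the probes called from 11936 to 23333. The count of markers called higher was 8 with spike-in scaling. The count called lower was 0 with spike-in scaling and 1 with median scaling. Leaving out 1 replicate at a time gave 3 to 4 higher and 1 to 3 lower, the 1 being without knockout replicate 1 or 2. Signs turned with spike-in scaling for Pecam1 (0.26), Tie1 (0.23), Eng (0.38), Rgs5 (0.40) and the dimmer Kdr probe (0.24), because it adds about 0.42 to each change by construction. Eng was 0.0078 with normexp and Rgs5 0.0049 with median scaling, and from -0.36 to 0.47 with 1 replicate left out (0.47 without hetero replicate 2, 0.08 without knockout replicate 1). For these the cause was not tested.

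The replicate numbers gave no sign of pairing. Deviations of same-numbered arrays correlated at -0.115, -0.018 and -0.006, and 0 of 3 hetero arrays correlated best with their own number. With 3 arrays per genotype, this check cannot show that the samples were unpaired. With the replicate block 8496 genes were called, and of the markers Tie1 alone changed its call (adjusted p = 0.0422). A slide row block, added after seeing the data, gave 9347 genes, and Tie1 passed (adjusted p = 0.0484). Signal over background limited Rgs5 and Podxl.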
